A study of Rattus norvegicus with 20 samples.

Results

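The effect of tofu against casein on hepatic gene expression was examined in rats that all received fish oil, by setting 5 livers of the TF group (tofu and fish oil) against 5 of the CF group (casein and fish oil). These 10 arrays, chosen by their diet labels, are 10 of the 20 of the series, and each covered 31039 tested probe sets, 20825 of them with 1 gene symbol, for 14217 genes. All animals were male Sprague-Dawley rats bought at 4 weeks of age and fed for 21 days on a diet with 20% protein and 15% fat. The CF and TF diets contained 50 g/kg fish oil in place of the same weight of soybean oil. The CS group (casein and soybean oil, 5 rats) and the TS group (tofu and soybean oil, 5 rats) received no fish oil and were used for the same change of protein on the other oil. The tofu was a freeze-dried powder that brought its own fat as well as protein. The tofu diets still contained some casein and had slightly less sucrose and energy per kg than the casein diets. The TF diet had no added soybean oil, so the groups differed in more than the protein. Each liver was hybridized to 1 Affymetrix rat genome array, and the 5 rats of a group were those with food intake near the average. A probe set is a group of short probes for 1 transcript. Its deposited value is a z score, the log signal standardized within the array. The deposited scores do not carry the spread of the original log signals, so all differences are given in z and none as a fold.

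In the liver, surplus carbohydrate and amino acid carbon is turned into fatty acids. Citrate leaves the mitochondrion and is cleaved to acetyl-CoA by ATP-citrate lyase, acetyl-CoA carboxylase makes malonyl-CoA, fatty acid synthase builds palmitate with NADPH from malic enzyme and the pentose phosphate pathway, and stearoyl-CoA desaturase introduces a double bond before the acids are stored as triacylglycerol. Insulin and glucose raise the transcription of these enzymes through SREBP-1c and ChREBP, whereas polyunsaturated fatty acids such as those of fish oil lower it, and soy protein has long been studied as a dietary factor that lowers liver lipid synthesis.

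In the livers of TF rats, Pnpla3, Scd, Fasn, Acly and Me1 were lower than in those of CF rats, and Fmo1, Cd14 and Cxcl13 were higher. Across all tested probe sets limma called 21 between TF and CF at an adjusted p under 0.05, which is 0.0677% of those tested, of which 14 fell (0.0451%) and 7 rose (0.0226%). These 21 probe sets carry 16 named genes and 2 probe sets without a symbol. When each array was scaled to 1 median and interquartile range, 14 rose and 14 fell, so the share of calls that rose was 50.0% instead of 33.3%. At an unadjusted p under 0.05 there were 2142 probe sets where 1552 are expected by chance. In all 21 called probe sets the 5 TF rats lay apart from the 5 CF rats, as was the case for 473 probe sets (1.52%) overall. Counted once per gene by the brightest probe set, 7 genes rose and 7 fell, which is 0.0492% of genes in each direction and 0.0985% in all.

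**Figure D1:**
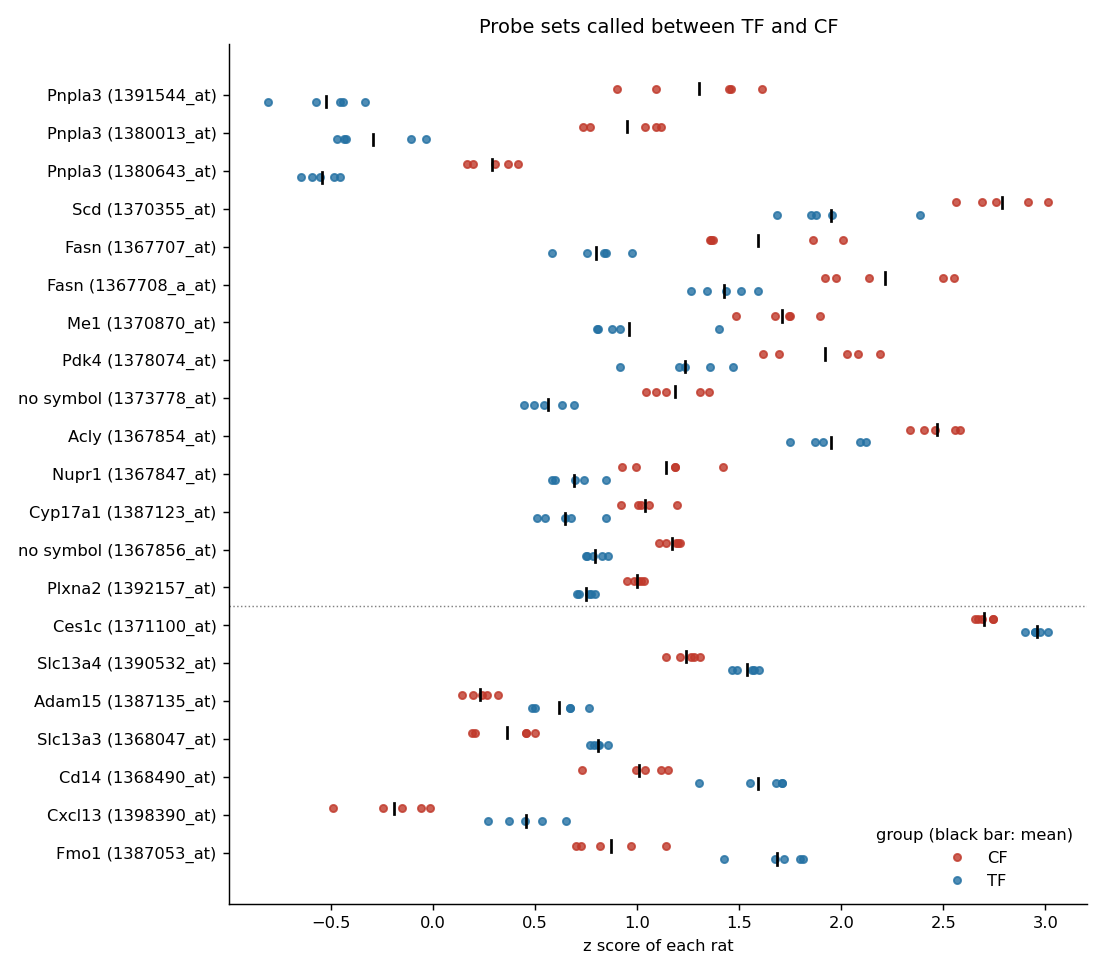
z score of each rat (horizontal axis) for the 21 probe sets called between TF (blue, 5 rats) and CF (red, 5 rats), with a black bar at each group mean. The 14 probe sets above the dotted line fell in TF and the 7 below it rose, and in none of them do the groups overlap.

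The promoters of 4 of the called genes are shown first, because genes of lipid synthesis moved together and Nupr1 and Fmo1 stand for the other groups with calls. Each run holds the 250 bases before and the first 50 bases after the transcription start in RefSeq on build GRCr8, written 5' to 3' on the strand of the gene. Capitals mark motifs found on either strand. The motifs searched were CCAAT, the site of factor NF-Y, CACGTG, an E-box, TCACNCCAC, a core of sterol regulatory elements, TGATGNAA, a core of the amino acid response element bound by ATF4 and its relatives, and the direct repeat 1 type of PPAR response element. No motif searched contains another. Pnpla3 lies at chr7:117173278-117173577, plus strand, and Acly at chr10:85963582-85963881, minus strand. Nupr1 lies at chr1:190645852-190646151, minus strand, and Fmo1 at chr13:77747617-77747916, minus strand.
Pnpla3: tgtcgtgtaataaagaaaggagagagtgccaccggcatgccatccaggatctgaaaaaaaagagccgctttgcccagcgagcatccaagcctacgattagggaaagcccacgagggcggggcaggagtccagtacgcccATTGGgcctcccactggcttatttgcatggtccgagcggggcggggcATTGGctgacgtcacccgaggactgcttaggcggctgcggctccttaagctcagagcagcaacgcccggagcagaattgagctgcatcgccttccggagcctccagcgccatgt
Acly: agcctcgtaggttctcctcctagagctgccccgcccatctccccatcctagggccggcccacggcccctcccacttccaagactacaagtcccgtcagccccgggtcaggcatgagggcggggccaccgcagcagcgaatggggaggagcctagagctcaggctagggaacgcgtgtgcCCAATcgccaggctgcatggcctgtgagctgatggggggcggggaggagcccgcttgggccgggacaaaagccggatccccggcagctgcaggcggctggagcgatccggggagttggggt
Nupr1: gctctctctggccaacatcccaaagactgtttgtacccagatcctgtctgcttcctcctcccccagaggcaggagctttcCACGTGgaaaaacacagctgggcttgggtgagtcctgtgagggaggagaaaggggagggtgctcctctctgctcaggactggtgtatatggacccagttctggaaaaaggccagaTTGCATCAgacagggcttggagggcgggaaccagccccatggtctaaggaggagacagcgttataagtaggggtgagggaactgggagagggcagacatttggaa
Fmo1: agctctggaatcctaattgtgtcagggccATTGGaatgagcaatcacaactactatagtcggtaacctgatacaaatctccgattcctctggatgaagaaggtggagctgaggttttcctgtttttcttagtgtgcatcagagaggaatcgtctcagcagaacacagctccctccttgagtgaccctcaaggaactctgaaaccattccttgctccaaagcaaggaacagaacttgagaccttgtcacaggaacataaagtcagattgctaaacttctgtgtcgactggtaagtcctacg
The Pnpla3 run has 2 CCAAT boxes, both on the opposite strand, the Acly run has 1 and the Fmo1 run has 1, also on the opposite strand. The Nupr1 run holds 1 E-box and, on the opposite strand, 1 match to the amino acid response element core. Promoters were found for 14 of the 16 named genes, 7 that fell and 7 that rose, and Fasn and Cyp17a1 had none in the table. CCAAT was in 3 of the 7 that fell and in 4 of the 7 that rose. It was in 37.7% of all 27457 promoters and in 37.3% of the 11733 of measured genes. CACGTG was in 1 of 7 of either direction, against 6.65% of all and 8.92% of those of measured genes. TGATGNAA was in 1 of the 7 that fell and in 0 of the 7 that rose, against 3.82% of all and 2.21% of those of measured genes. TCACNCCAC was in none of the 14, against 1.13% of all promoters and 1.12% of those of measured genes. The direct repeat was in none of the 14 either, against 0.102% and 0.0767%. These are letters in a window, and binding was not measured.

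The largest fall was that of Pnpla3, which encodes patatin-like phospholipase domain-containing protein 3 (adiponutrin), a protein of the lipid droplet whose gene is known to rise with feeding. On its brightest probe set (1391544_at) the 5 CF rats had z scores of 1.46, 1.61, 0.90, 1.45 and 1.09, and the 5 TF rats had -0.44, -0.58, -0.81, -0.34 and -0.46. The lowest CF rat and the highest TF rat were 1.24 apart. The mean was 1.30 ± 0.30 (SD, n = 5) in CF and -0.52 ± 0.18 (SD, n = 5) in TF, a difference of -1.83 with a standard error of 0.13 (limma adjusted p = 1.23e-06). The other probe sets of the gene fell by 1.25 (1380013_at, adjusted p = 0.000246) and by 0.84 in z (1380643_at, adjusted p = 4.52e-05), so all 3 probe sets on the array were called. In TF each of them had a mean below the highest array median of 0.022. Of the 25 measured genes of triacylglycerol synthesis and lipid droplets, Pnpla3 was the 1 that fell and 0 rose, with 20 lower and 5 higher in TF by any size and a median difference of -0.03, beside 45.5% of all genes lower and a median of 0.01. Hsd17b13, an enzyme of the droplet surface, had a difference of -0.23 (adjusted p = 0.0958) and Plin2, the droplet coat protein perilipin 2, one of -0.17 (adjusted p = 0.304), and neither passed, although TF and CF rats did not overlap in either gene, as in 280 of all genes (1.97%).

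Among the enzymes of fatty acid synthesis, Fasn and Acly fell, and all 11 measured members were lower in TF (45.5% of all genes were). For Acly, ATP-citrate lyase, the CF rats had z scores of 2.56, 2.58, 2.34, 2.46 and 2.41 and the TF rats 1.91, 2.12, 1.87, 2.09 and 1.75. The groups were separated by 0.22, and Acly was lower in TF (difference of -0.52, standard error 0.071, limma adjusted p = 0.00275). For Fasn, fatty acid synthase, the brighter probe set (1367708_a_at) read 2.55, 2.50, 1.92, 1.97 and 2.14 in CF and 1.43, 1.34, 1.51, 1.59 and 1.26 in TF. CF-1 and CF-2 stood above the other 3 CF rats, and the TF rats lay close together. Fasn was lower in TF on this probe set (difference of -0.79, standard error 0.13, adjusted p = 0.0278) and on the other (1367707_at, difference of -0.79, adjusted p = 0.0298). For Me1, the cytosolic malic enzyme that supplies NADPH, probe set 1370870_at read 1.48, 1.89, 1.68, 1.75 and 1.74 in CF and 0.88, 1.40, 0.80, 0.92 and 0.81 in TF. TF-4 was the only TF rat near the CF range. Me1 was lower there (difference of -0.75, standard error 0.12, adjusted p = 0.0129), but on its brightest probe set (1370067_at) the difference of -0.54 did not pass (adjusted p = 0.101).

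The other members of fatty acid synthesis were lower without passing the test. Pgd, a dehydrogenase of the pentose phosphate pathway, had a difference of -0.26 (adjusted p = 0.158). Acaca, the cytosolic acetyl-CoA carboxylase, which is named after its values were seen, had one of -0.34 (adjusted p = 0.172), with CF rats at 1.61, 1.74, 1.36, 1.30 and 1.42 and TF rats at 1.07, 1.26, 1.15, 1.18 and 1.07. Counted over the brightest probe sets, 2 of the 11 fell and 0 rose, 8 were lower at an unadjusted p under 0.05 (3.09% of all genes were, and 7.08% passed in either direction) and in 5 the TF rats all lay below the CF rats (0.957% of all genes). The median difference of the list was -0.31. Like the other lists, it was chosen with earlier results of these data known, so these shares are only a description. With arrays scaled to 1 median and interquartile range 10 of the 11 were lower, and under quantile normalization all 11 were. The Acly call was kept without any single rat. That of Fasn on 1367708_a_at ended without CF-1, CF-2, CF-7 or any 1 of the 5 TF rats (adjusted p up to 0.118, without CF-2), on 1367707_at without CF-1, CF-2 or any 1 TF rat (up to 0.119, without CF-2), and that of Me1 without CF-2, TF-5, TF-6 or TF-7 (up to 0.0579, without TF-7).

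Of the 13 measured genes of fatty acid elongation and desaturation, Scd fell and 0 rose. Scd, the delta-9 desaturase of the rat liver, had z scores of 2.92, 3.01, 2.76, 2.69 and 2.56 in CF and of 1.96, 1.85, 1.68, 1.88 and 2.39 in TF. TF-7 was the TF rat closest to the CF range, 0.18 below it. Scd was lower in TF (difference of -0.84, standard error 0.12, limma adjusted p = 0.00758), and this call was kept without any single rat. Fads2, the delta-6 desaturase, read 2.19, 2.16, 2.46, 2.44 and 2.15 in CF and 1.88, 2.06, 1.86, 1.85 and 1.91 in TF. Its groups did not overlap either, and its difference of -0.36 missed the threshold (adjusted p = 0.0655). Fads1, the delta-5 desaturase, had a difference of -0.25 (adjusted p = 0.108) and Elovl6, which elongates palmitate, one of -0.42 (adjusted p = 0.245). Elovl2, an elongase of polyunsaturated fatty acids, had a difference of -0.26 (adjusted p = 0.490), and Elovl3, an elongase of saturated and monounsaturated acids, had one of 0.30 (adjusted p = 0.826) at levels below the array medians, both named after their values were seen. The median of the list was -0.03, with 9 genes lower (45.5% of all genes were) and 4 higher. At an unadjusted p under 0.05 in limma 6 were lower and 1 higher (3.09% and 3.99% of all genes). With arrays scaled to 1 median and interquartile range 7 were lower and 6 higher.

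None of the 17 measured regulators of lipogenesis was called. Over all genes 0.0985% were, so a list of 17 may hold none. Insig1, which holds SREBP in the endoplasmic reticulum and is itself an SREBP target, had a difference of -0.39 (adjusted p = 0.389), with every TF rat below the lowest CF rat at 2.14. Srebf1, the gene of SREBP-1, which switches on the synthetic enzymes, had one of -0.22 (adjusted p = 0.688) and Mlxipl, the gene of ChREBP, one of -0.13 (adjusted p = 0.412).

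**Figure D2:**
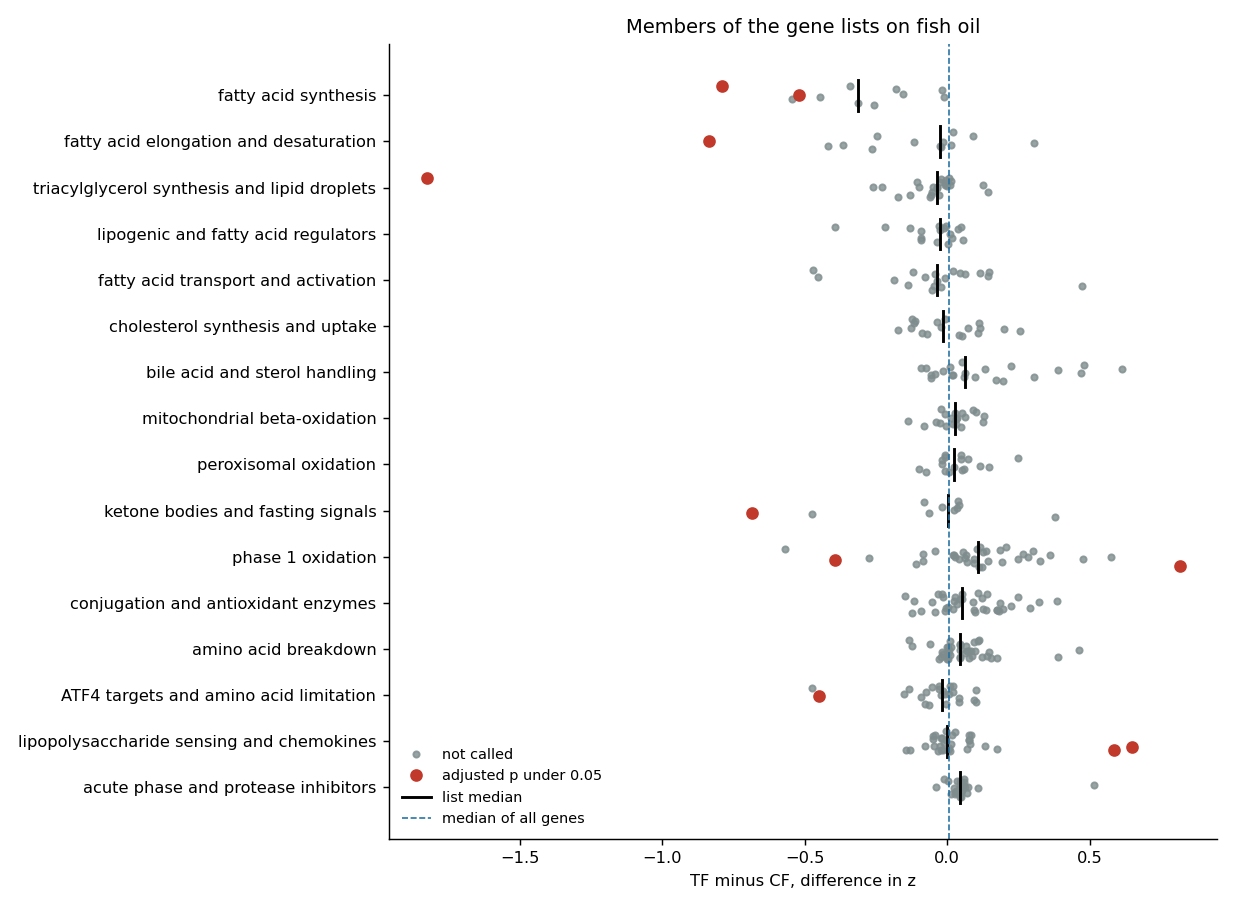
Difference in z between TF and CF (horizontal axis) for the measured members of 16 gene lists, 1 point per gene by its brightest probe set, with called genes in red and a black bar at each list median. All 11 genes of fatty acid synthesis lie below 0, with a median of -0.31, while the median of all genes, shown by the dashed line, was 0.01.

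Beyond the synthetic enzymes, Pdk4 fell. Pdk4 encodes pyruvate dehydrogenase kinase 4, which inhibits the conversion of pyruvate to acetyl-CoA by pyruvate dehydrogenase and is known to rise in fasting. Its brighter probe set (1378074_at) read 2.19, 2.03, 2.08, 1.69 and 1.62 in CF and 1.20, 1.47, 0.92, 1.35 and 1.24 in TF. All TF rats lay below all CF rats, and Pdk4 was lower (difference of -0.69, standard error 0.12, limma adjusted p = 0.0312). The second probe set (1369150_at) differed by -0.15 (adjusted p = 0.688), so the call rests on 1 of 2 probe sets. It also ended without CF-1, CF-2, CF-5, TF-3, TF-5, TF-6, TF-7 or TS-7 (adjusted p up to 0.122, without CF-2). Of the 10 measured genes of ketone bodies and fasting signals, Pdk4 was the 1 that fell and 0 rose, and the median difference was 0.00. Fgf21, a hormone of the liver that responds to fasting and to low protein intake, had a difference of -0.47 (adjusted p = 0.243), with values of 0.42, 0.79, 0.64, 0.64 and 0.76 in CF and of 0.08, 0.01, 0.13, 0.19 and 0.49 in TF. TF-7 reached into the CF range and the other 4 TF rats did not.

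Nupr1, a stress-induced nuclear protein whose gene is a target of ATF4, fell. The CF rats read 1.42, 1.19, 1.18, 0.93 and 0.99 and the TF rats 0.60, 0.74, 0.84, 0.58 and 0.69. The gap between the groups was only 0.08, and Nupr1 was lower in TF (difference of -0.45, standard error 0.079, limma adjusted p = 0.0298). The call ended without CF-1, CF-2, CF-5, TF-3, TF-4, TF-6 or TF-7 (adjusted p up to 0.119, without CF-2). Of 24 measured ATF4 targets and genes of amino acid limitation, Nupr1 was the 1 that fell and 0 rose, and Atf4 itself had a difference of -0.13 (adjusted p = 0.688). The median of the list was -0.02.

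Genes of drug and xenobiotic oxidation were mostly higher in TF, led by Fmo1. Fmo1 encodes a flavin-containing monooxygenase that oxidizes nitrogen and sulfur in many foreign compounds. It read 0.73, 0.70, 0.97, 0.82 and 1.14 in CF and 1.43, 1.67, 1.72, 1.80 and 1.81 in TF. Every TF rat was above every CF rat by at least 0.28, and Fmo1 was higher (difference of 0.82, standard error 0.097, limma adjusted p = 0.000705). Cyp17a1, the steroid 17-alpha-hydroxylase, fell, with 1.02, 0.92, 1.20, 1.06 and 1.003 in CF and 0.51, 0.85, 0.65, 0.67 and 0.55 in TF. TF-4 came within 0.07 of the lowest CF rat, and the difference was -0.39 (standard error 0.071, adjusted p = 0.0360). Of the 20 fits that left out 1 rat of the series, 4 kept the call of Cyp17a1, those without TF-4, CS-5, CS-6 or TS-1, and its adjusted p reached 0.134 without TF-3.

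Of the 36 measured genes of this group of cytochromes P450, flavin monooxygenases and related enzymes, 1 rose and 1 fell, 29 were higher in TF by any size (54.5% of all genes were) and 15 were higher at an unadjusted p under 0.05 (3.99% of all genes). In 10 of them all TF rats lay above all CF rats, against 1.01% of genes. The median difference was 0.11, and 27 of the 36 were higher under quantile normalization. This list too was chosen with earlier results of these data known, so its shares are only a description. Cyp1a2, which metabolizes caffeine and other planar amines, read 2.01, 1.88, 2.09, 2.04 and 2.03 in CF and 2.31, 2.61, 2.47, 2.74 and 2.31 in TF. These values did not overlap, and the difference of 0.48 did not pass (adjusted p = 0.158). Ces1d, a carboxylesterase, had a difference of 0.25 (adjusted p = 0.304) and Cyp2e1, the ethanol-oxidizing P450, one of 0.21 (adjusted p = 0.484). Ces1c, a carboxylesterase secreted into plasma and not a member of the 36, rose from 2.70 ± 0.04 (SD, n = 5) to 2.96 ± 0.04 (SD, n = 5), a difference of 0.26 (limma adjusted p = 0.0298). Its second probe set (1397427_at) had a difference of 0.12 (adjusted p = 0.891) on fish oil and of -0.05 on soybean oil. The rise on 1371100_at was the smallest among the 7 called, with the rats of each group close together. Its call was lost under quantile normalization (adjusted p = 0.117) and in each of the 10 fits without 1 TF or CF rat (up to 0.119, without CF-2). None of the 37 measured conjugation and antioxidant enzymes was called (0.0985% of all genes were), and 26 were higher (54.5% of all genes). Gsta4, a glutathione transferase that takes up lipid aldehydes, had a difference of 0.18 (adjusted p = 0.366) and Gstm7 one of 0.38 (adjusted p = 0.506).

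Among 32 measured genes of lipopolysaccharide sensing and chemokines, Cd14 and Cxcl13 rose and 0 fell. Cd14 encodes the coreceptor that hands bacterial lipopolysaccharide to Toll-like receptor 4. It read 0.99, 0.73, 1.04, 1.12 and 1.15 in CF and 1.30, 1.71, 1.71, 1.55 and 1.68 in TF. The lowest TF rat was 0.15 above the highest CF rat, and Cd14 was higher (difference of 0.58, standard error 0.087, limma adjusted p = 0.00769). Cxcl13, a chemokine that draws B cells, read -0.15, -0.06, -0.49, -0.02 and -0.25 in CF and 0.37, 0.27, 0.45, 0.53 and 0.65 in TF. All CF values were below 0 and all TF values above it, a difference of 0.65 (standard error 0.11, adjusted p = 0.0195). The call of Cxcl13 ended without CF-1, CF-5, CF-7, TF-5, TF-6 or TF-7 (adjusted p up to 0.0847, without TF-7), and that of Cd14 was kept without any single rat. Cxcl12, another chemokine, had a difference of 0.18 (adjusted p = 0.158), and the median of the 32 genes was 0.00. Markers of Kupffer cells and macrophages, which also express Cd14, were higher in 10 of 12 measured members (54.5% of all genes were), with 0 called. Their mean z lay between 0.99 and 1.03 in the CF rats and between 0.96 and 1.10 in the TF rats, and their part in the rise of both genes was not tested. In whole liver a change in the number of cells of a type and a change in RNA per cell cannot be told apart.

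Both sodium-coupled carriers Slc13a4 and Slc13a3 rose. Slc13a4, a sulfate transporter, read 1.31, 1.21, 1.28, 1.14 and 1.26 in CF and 1.59, 1.47, 1.56, 1.49 and 1.57 in TF. The groups were 0.16 apart, a small but even difference of 0.30 (standard error 0.039, limma adjusted p = 0.00206), and the call was kept without any single rat. Slc13a3, a carrier of succinate and other dicarboxylates, read 0.45, 0.19, 0.50, 0.20 and 0.46 in CF and 0.79, 0.81, 0.77, 0.86 and 0.81 in TF. CF rats varied among themselves more than TF rats, and Slc13a3 was higher in TF (difference of 0.45, standard error 0.077, adjusted p = 0.0288). Adam15, a membrane metalloprotease, was higher (difference of 0.39, adjusted p = 0.0228), with CF rats at 0.24, 0.14, 0.32, 0.26 and 0.19 and TF rats at 0.48, 0.50, 0.67, 0.76 and 0.67. Plxna2, a semaphorin receptor, fell by 0.25 on 1392157_at (adjusted p = 0.0228), while its brightest probe set differed by -0.23 and was not called (1390274_at, adjusted p = 0.605). The calls of Slc13a3 (without CF-1, CF-2, CF-6 or any 1 TF rat), Adam15 (without CF-1, CF-2, CF-7, TF-5, TF-6 or TF-7) and Plxna2 (without CF-1, CF-2, CF-5, TF-3, TF-5, TF-6 or TF-7) were lost in single fits, with adjusted p up to 0.119, 0.101 and 0.0888.

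Of the called probe sets without a symbol, 1373778_at read 1.14, 1.04, 1.35, 1.31 and 1.09 in CF and 0.63, 0.69, 0.45, 0.54 and 0.49 in TF. It was lower (difference of -0.63, limma adjusted p = 0.000933), and the call was kept without any single rat. The other, 1367856_at, fell by 0.38 (adjusted p = 0.0156), and this call ended without CF-1, CF-2, TF-5, TF-6 or TF-7 (adjusted p up to 0.0630, without CF-2).

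None of the lists of fatty acid transport and activation, bile acid and sterol handling, or cholesterol synthesis and uptake held a called gene. Over all genes 0.0985% were called, so lists of this size may hold none. Among 19 measured genes of fatty acid transport and activation, Fabp2, a fatty acid binding protein best known from the intestine, had a difference of -0.45 (adjusted p = 0.137) and Fabp5, another binding protein, one of -0.47 (adjusted p = 0.255). In Fabp2 all CF rats were above all TF rats, at 0.09 to 0.37 against -0.39 to -0.08. Acsm3, a medium-chain acyl-CoA synthetase named after its values were seen, had a difference of 0.47 (adjusted p = 0.667). The median of the list was -0.03, with 12 genes lower (45.5% of all genes were) and 7 higher. With arrays scaled to 1 median and interquartile range 9 were lower and 10 higher. Of 22 measured genes of bile acid and sterol handling 16 were higher (54.5% of all genes were), with a median difference of 0.06. Abcg8 and Abcg5, whose products together pump sterols into bile, had differences of 0.48 (adjusted p = 0.245) and 0.39 (adjusted p = 0.351), and Cyp8b1, the sterol 12-alpha-hydroxylase, had one of 0.22 (adjusted p = 0.545). Cyp7a1, the rate-limiting enzyme of bile acid synthesis, named after its values were seen, was higher in every TF rat (0.28 to 1.03) than in any CF rat (-0.51 to 0.24). Its difference of 0.61 had a standard error of 0.23 (adjusted p = 0.592). Of 18 measured genes of cholesterol synthesis and uptake 0 were called, and Fdps, which makes farnesyl diphosphate, had a difference of -0.17 (adjusted p = 0.461). Sc5d, another member, had an adjusted p of 0.604 on its brightest probe set. Another of its 3 probe sets, picked out after its values were seen, came nearer, with all TF rats below all CF rats. Its difference was -0.34 on fish oil (adjusted p = 0.0669) and -0.25 on soybean oil (adjusted p = 0.244), and neither passed.

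For fatty acid oxidation, the list medians were small, and how many genes were higher in TF varied with the processing. Of the 20 measured genes of mitochondrial beta-oxidation 0 were called, their differences ran from -0.14 to 0.13, and the median was 0.03. Echs1, the enoyl-CoA hydratase, differed by 0.13 (adjusted p = 0.563), Acadm, the medium-chain dehydrogenase, by 0.12 (adjusted p = 0.605), and Cpt1a, the carnitine palmitoyltransferase of the liver, by -0.14 (adjusted p = 0.763). The 17 measured genes of peroxisomal oxidation had a median of 0.02 and the 9 acyl-CoA thioesterases one of -0.01, with 0 called in either. Peroxisomal differences ran from -0.10 to 0.25. Higher in TF were 13 of the 20 mitochondrial and 10 of the 17 peroxisomal genes, beside 54.5% of all genes. With arrays scaled to 1 median and interquartile range 17 and 14 were. Without the 4 arrays with low 5' beta-actin described below 8 and 8 were. Acot1, a cytosolic thioesterase, varied widely within both groups, from 0.69 to 2.55 in CF and from 0.63 to 2.16 in TF (difference of -0.47, adjusted p = 0.843).

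Of the 40 measured genes of amino acid breakdown 30 were higher in TF (54.5% of all genes were) and 0 were called (0.0985% of all genes). The median was 0.05, and under quantile normalization 25 were higher. Oat, ornithine aminotransferase, came nearest. It read 1.76, 1.71, 1.81, 2.03 and 1.82 in CF and 2.27, 2.06, 2.33, 2.38 and 2.40 in TF, a difference of 0.46 (limma adjusted p = 0.0958). With arrays scaled to 1 median and interquartile range it passed (adjusted p = 0.0436). Hpd, of tyrosine breakdown, differed by 0.15 (adjusted p = 0.406). Among 20 genes of the methionine cycle, Mat2a, a methionine adenosyltransferase, differed by 0.15 (adjusted p = 0.541), and the 11 genes of the urea cycle and arginine had a median of 0.02.

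Hamp and A2m, plasma proteins made by hepatocytes, showed wide differences that did not pass. Hamp, the iron-regulating hormone hepcidin, read 2.30, 1.79, 1.51, 0.01 and 1.43 in CF and -0.05, -0.37, 0.02, 0.01 and 0.15 in TF. CF-6 lay within the TF range and the other 4 CF rats far above it, and the difference was -1.46 with a standard error of 0.38 (limma adjusted p = 0.282, and 0.0470 without CF-6). Tfrc, the transferrin receptor, had a difference of 0.51 (adjusted p = 0.688). A2m, the protease inhibitor alpha-2-macroglobulin, read 0.42, 0.26, 0.38, 0.22 and 0.25 in CF and 0.77, 0.70, 0.79, 0.73 and 1.11 in TF (difference of 0.51, adjusted p = 0.110). Among 25 measured genes of the acute phase and protease inhibitors 23 were higher (54.5% of all genes were), by a median of 0.05. Under quantile normalization 14 were higher. Of 27 measured cell cycle genes 0 were called and the median was -0.01, with Ccnd1, which encodes cyclin D1, at -0.20 (adjusted p = 0.389).

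Larger differences than most of the called ones also missed the test where the rats of a group varied widely. Inmt, an indolethylamine N-methyltransferase, and Fam111a, a protease gene, were picked out after their values were seen. Inmt had a mean of 0.67 ± 0.39 (SD, n = 5) in CF and of 1.75 ± 0.27 (SD, n = 5) in TF without overlap (difference of 1.08, limma adjusted p = 0.0958). Fam111a had -0.50 ± 0.65 (SD, n = 5) in CF and 0.75 ± 0.64 (SD, n = 5) in TF (difference of 1.25, adjusted p = 0.531).

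The change of protein was also made on soybean oil in the CS and TS rats, and there the called probe sets had the same direction. The model takes its spread from all 4 groups, so these rats also bear on which probe sets were called between TF and CF. All 21 probe sets called between TF and CF had the same sign in TS minus CS, beside 58.7% of all probe sets. All 21 also had an unadjusted p under 0.05 there in limma, beside 7.15% of all. Both tests use the same standard error for a probe set, so being called on fish oil makes a low p on soybean oil more likely. The 7.15%, and the 0.0709% given next, are therefore not like backgrounds. Of the 21, 12 were also called between TS and CS (57.1% of the calls on fish oil and 54.5% of the 22 on soybean oil, which are 0.0709% of probe sets). Of the 15 probe sets called between TF and CF without the 3 arrays least correlated with the rest, 80.0% had the same sign on soybean oil. In 18 of the 21 the 5 TS rats lay apart from the 5 CS rats, beside 1.36% of all probe sets, with the same limit. The calls shared by both oils were the 3 of Pnpla3, both of Fasn, Me1 on 1370870_at, both probe sets without a symbol, Slc13a4, Ces1c, Cd14 and Fmo1. Over genes, the Pearson r between both differences was 0.33 and Spearman's rho was 0.29, given as a description, since genes share their arrays and are not independent. All 11 genes of fatty acid synthesis were lower on tofu on soybean oil as well, with a median of -0.22, where 61.7% of all genes had the same sign on both oils. Other lists varied in this, as 27 of the 36 genes of drug and xenobiotic oxidation had the same sign on both oils, but 18 of the 32 of lipopolysaccharide sensing and chemokines, 12 of the 20 of mitochondrial beta-oxidation and 5 of the 10 of ketone bodies and fasting signals did. The median of fatty acid transport and activation was -0.03 on fish oil and 0.01 on soybean oil.

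Whether the effect of tofu differed between the oils was tested by the difference of both differences, and limma called 0 probe sets (1065 at an unadjusted p under 0.05, which is 3.43%, and also 0 called without moderation of the variance). The median standard error of this test was 0.11, against 0.075 for TF minus CF. For Pnpla3 the means of both tofu groups lay below the highest array median on all 3 probe sets, so each drop may be a lower bound. The drop was -0.84 on fish oil and -1.43 on soybean oil on 1380643_at, a difference of 0.59 with a 95% interval from 0.35 to 0.83 (adjusted p = 0.484), and the group means were 0.29 ± 0.11 in CF, 0.91 ± 0.22 in CS, -0.55 ± 0.08 in TF and -0.52 ± 0.06 in TS (SD, n = 5 each). On the brightest probe set the difference was 0.22, with an interval from -0.18 to 0.61. On 1380013_at it was 0.55, with an interval from 0.15 to 0.95, and it did not pass after adjustment either. Nupr1 fell by 0.45 on fish oil and had a difference of -0.18 on soybean oil, and these differed by -0.27 with an interval from -0.50 to -0.03 (adjusted p = 1). For Scd, which was called on fish oil and not on soybean oil (-0.84 and -0.56), the interval ran from -0.65 to 0.08, and for Fmo1 (0.82 and 0.65) from -0.12 to 0.45.

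**Figure D3:**
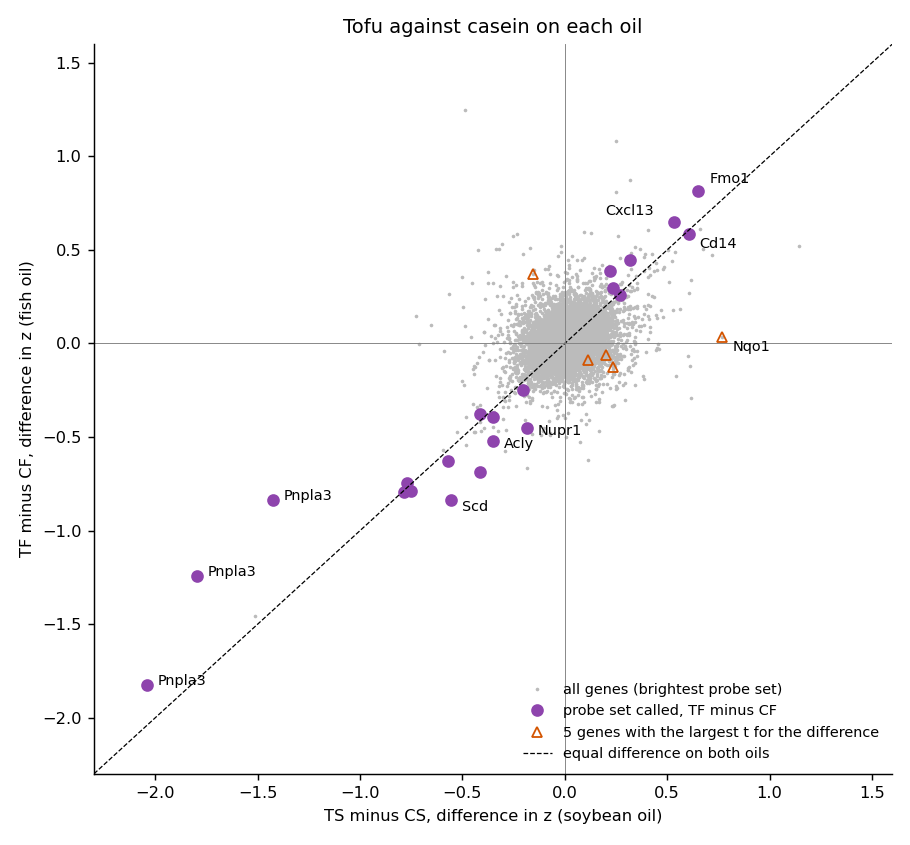
Difference in z between tofu and casein on fish oil (vertical axis) against that on soybean oil (horizontal axis), with a grey point per gene and a purple point for each of the 21 probe sets called on fish oil. The purple points all lie in the quadrants of equal sign, and Nqo1 lies at 0.77 on the horizontal and 0.03 on the vertical axis.

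The 5 genes with the largest t for the difference between the oils were Nqo1, Lrrc56, Cyb5b, Zc3h8 and Osgepl1. Nqo1, a quinone reductase induced by Nrf2, had a difference of 0.03 between TF and CF (adjusted p = 0.974) and of 0.77 between TS and CS (adjusted p = 0.00115). The effects differed by -0.73 with an interval from -1.01 to -0.45, which did not pass over all probe sets (adjusted p = 0.484). CS rats were the low group for this gene, at 0.71 ± 0.22 (SD, n = 5), below CF at 1.23 ± 0.10, TF at 1.26 ± 0.14 and TS at 1.48 ± 0.14 (SD, n = 5 each). The other 4 genes had differences between the oils of -0.26, -0.36, -0.20 and 0.53, in the order named.

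**Figure D4:**
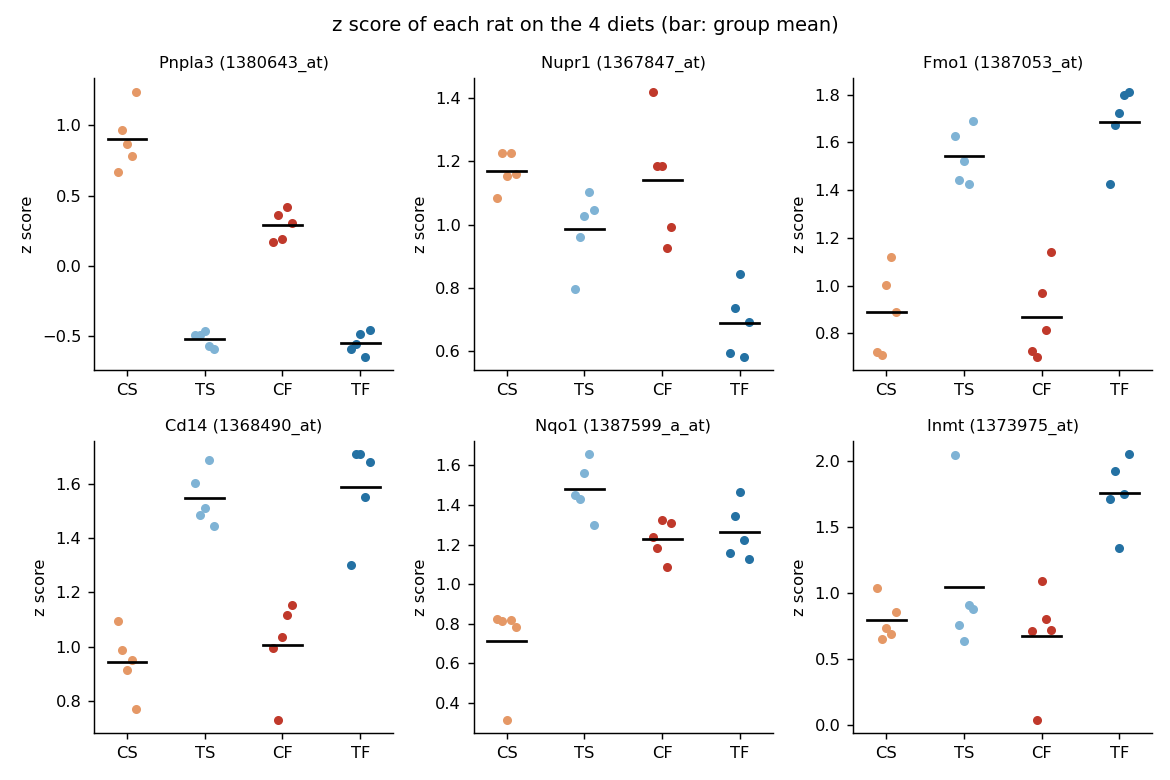
z score of each rat (vertical axis) on the 4 diets for Pnpla3 (1380643_at), Nupr1, Fmo1, Cd14, Nqo1 and Inmt, with a bar at the group mean. Fmo1 and Cd14 are higher in both tofu groups (TS and TF) than in both casein groups (CS and CF), whereas Nqo1 is low only in CS.

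The arrays read as liver, since all 13 measured hepatocyte markers lay above the array medians, with a mean z from 2.65 to 2.76 in CF and from 2.70 to 2.86 in TF, and 13 of 14 lymphocyte and neutrophil markers lay at or below them. None of the 7 marker lists of cell types held a called gene. None of 7 array checks passed an exact two-sided permutation test between TF and CF (lowest adjusted p = 0.856), where the smallest unadjusted p the design allows is 0.00794, so that after adjustment over the 7 no check could pass on its own. CF-1 and TF-3 had low 5' beta-actin controls together with CS-1 and TS-1 (1.30 to 1.42 in z, against 1.86 to 2.13 in the other 16 arrays), and without these 4 arrays 7 of the 21 calls remained, those of Pnpla3 (3 probe sets), 1373778_at, Slc13a4, Cd14 and Fmo1. TF-4 and TF-5 were, with TS-7, the arrays least correlated with the rest (mean r of 0.939 to 0.943, against 0.951 to 0.956), and 10 calls remained without these 3. With the 10 TF and CF arrays alone, 6 calls remained (3 of Pnpla3, both probe sets without a symbol and Fmo1).

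**Figure D5:**
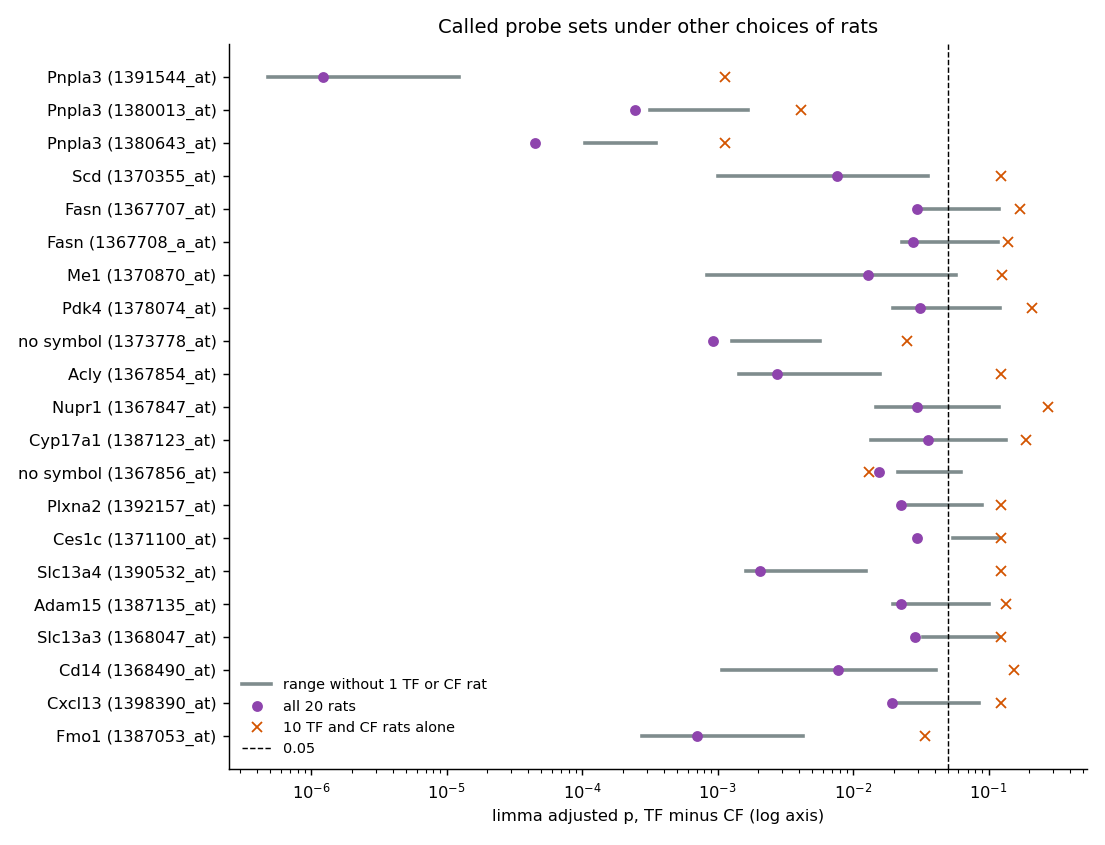
limma adjusted p of each of the 21 called probe sets (horizontal log axis) with all 20 rats (purple point), its range over the 10 fits without 1 TF or CF rat (grey bar) and with the 10 TF and CF rats alone (cross). The bars of 9 probe sets, including Pnpla3, Scd, Acly, Slc13a4, Cd14 and Fmo1, stay left of 0.05.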

How the data were processed

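Hepatic total RNA of 20 rats, 5 in each of 4 diet groups, was hybridized to 1 array each. The authors normalized the raw signals with the SuperNORM service and deposited 1 table of z scores, a score per probe set on a log scale standardized within each array, without counts or raw signals, so the depth behind a value is unknown and the number of arrays limits the precision. The settings of the service are not given in the sources used here. The table has 31099 probe sets, of which 57 controls were left out and 31039 had at least 3 values in each group (63 values in the table were missing, 29 of them in TF and CF rats of tested probe sets). Symbols came from the platform annotation, updated through RefSeq (20825 probe sets with 1 symbol, 436 with several, 9778 with none), and a gene was represented by its brightest probe set.

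A linear model with the 4 group means was fitted to all 20 arrays in limma 3.58.1 (R 4.3.3), so that the groups share 1 estimate of the spread, and TF minus CF, TS minus CS and their difference were tested with Benjamini-Hochberg adjustment over all 31039 probe sets at a threshold of 0.05. The labels do not tie rats of different groups to each other, and each p-value measures the spread between rats. In simulated data with known changes of 0.2, 0.4 and 0.8 in z in TF, 100 probe sets each, 13%, 68% and 91% were recovered, with 9 false calls. The noise was normal and independent between probe sets, and more probe sets were changed than were called here. These shares may therefore overstate what the real comparison recovers. Differences were kept in z, since a conversion to fold changes could not be derived from the deposited scores. The members and the 34 gene lists (630 of 702 members measured) were chosen with earlier results of these data known. Genes named are the called ones, up to 4 members per list with the largest t, and the 5 with the largest t for the difference between oils; others are marked in the text. Alternatives were quantile normalization, scaling of arrays, brighter probe sets only, averaging the probe sets of each gene, the 10 arrays alone, other variance moderation, array weights, the rat number as a block, leaving out single rats (those of TS and CS were added after seeing the data) and leaving out arrays that stood apart. Promoter sequences are from RefSeq, build GRCr8.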

Additional observations from a re-analysis of the deposited data

Results flagged for a closer look

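Of 150 checks for a rat far from the other 4 of its group (called probe sets, 47 other genes and array controls of TF and CF), 11 flagged 1 rat, and chance flags about 1 in 20. TF-4 read high for Me1 on both probe sets, at 1.40 on 1370870_at, where the other TF rats lay between 0.80 and 0.92, and at 1.55 on 1370067_at, where they lay between 1.01 and 1.05. In CF, rat CF-1 read low for Me1 on 1370067_at, at 1.32 against 1.69 to 1.84. TF-4 was also the high TF rat for Fads2, at 2.06 against 1.85 to 1.91. CF-2 was high for Elovl6, at 1.24 against 0.58 to 0.75. TF-7 was high for A2m, at 1.11 against 0.70 to 0.79. CF-5 was high for Fam111a, at 0.64 against -0.94 to -0.71 in the other CF rats.

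Rats CF-1 and TF-3 were set apart by array controls. Beta-actin at its 5' end read 1.42 in CF-1, against 2.03 to 2.13 in the other CF rats. The 3' minus 5' difference of beta-actin was 0.771 in CF-1, against 0.446 to 0.4998 in CF, and 0.787 in TF-3, against 0.468 to 0.515 in TF. The same difference for GAPDH was 0.0864 in TF-3, against 0.0105 to 0.0267.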

How the results depend on the processing

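The 21 called probe sets kept their sign in all 670 values under the alternatives, 162 of which no longer passed. The 47 other genes checked kept theirs too, as did the differences between oils of the 5 genes named for them. Dbi, Angptl4, Lipc and Acot4 were among the 47 and are not named above. The 47 did not pass in the report and passed in 38 values. Probe sets called for TF minus CF (rose and fell) and genes called were 53 (21 and 32; 40 genes) among brighter probe sets only, 38 (14 and 24; 26 genes) with a variance trend and robust moderation, 33 (11 and 22) with array weights, 7 (3 and 4; 4 genes) without the arrays with low 5' beta-actin and 6 (1 and 5; 2 genes) with the 10 arrays alone. Without the 3 least correlated arrays 4 rose and 9 genes were called, and with scaled arrays 14 rose. At an adjusted p under 0.01 there were 9 (3 and 6; 6 genes) and under 0.1 there were 37 (14 and 23; 25 genes). Called members of the lists were 10 as reported, 20 among brighter probe sets, 6 without moderation, 5 without the least correlated arrays, 3 without low beta-actin and 2 with the 10 arrays alone. For TS minus CS, 22 calls became 42 among brighter probe sets, 9 without the least correlated arrays and 5 without low beta-actin. Leaving out 1 rat at a time gave 9 to 25 calls (3 to 10 rose, 6 to 17 fell), 6 to 17 genes and 5 to 11 list members for TF minus CF, 11 to 26 calls for TS minus CS and 0 for the difference between oils, and 90.9% to 100% of TF minus CF calls had the same sign in TS minus CS, against 80.0% without the 3 least correlated arrays. The cause of these shifts was not tested. The rat number in the labels was not used as a pairing, and whether rats of 1 number shared a block is not known. Rats numbered alike in TF and CF (5, 6 and 7) had residual correlations of -0.0982, -0.0402 and 0.0616. These 3 pairs are too few to settle it, and the arrays with low 5' beta-actin (CF-1, TF-3, CS-1 and TS-1) were not among them. With the rat number as a random replicate block 21 probe sets were called (7 and 14). With the number as a fixed block in the 3 shared numbers (6 arrays) 0 were called, 0 rising and 0 falling, with 0 genes and 0 list members. That fit had 2078 probe sets at an unadjusted p under 0.05 in limma, and with 6 arrays it says little about stability.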
